A study of Macaca mulatta with 81 samples.

Results

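T cells of 4 rhesus macaques labelled Siro.F were set against T cells of 34 healthy macaques labelled Healthy.Control, out of 81 expression arrays in the series. The 4 arrays are those whose label ends in Siro.F with no other agent in the group name, and they come from animals R.13, R.16, R.17 and R.18. Each of these animals had received an allogeneic haematopoietic cell transplant (blood stem cells from another animal) with the prophylaxis written as Siro, read here as sirolimus. Their sampling time is given as Final, with no day. For the controls the labels give transplant type, prophylaxis and day as not applicable. In all groups CD3 T cells, of both the CD4 and the CD8 kind, were sorted from peripheral blood by flow cytometry. Animals R.13, R.16 and R.18 also gave a control array, and R.17 did not. The dose of sirolimus, the age of the animals and their clinical state at sampling are not given in the sources used here. Each array is 1 animal at 1 time. The p-values rest on the spread within groups, pooled over all 81 arrays, of animals and arrays together. That fit took the arrays as independent, although some animals gave more than 1.

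Sirolimus binds the small protein FKBP12 (gene FKBP1A), and the pair inhibits the kinase mTOR in its complex mTORC1. In T cells mTORC1 joins signals from the antigen receptor, from CD28 and from cytokine receptors to glucose use, protein synthesis and entry into the cell cycle. After an allogeneic transplant donor T cells can attack host tissue, which is graft-versus-host disease, and sirolimus is one of the drugs given to prevent it. T cells that have been activated take on cell cycle genes and inhibitory receptors such as LAG3 and CTLA4, and resting naive cells hold high levels of KLF2, FOXP1 and TCF7.

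Across the 81 arrays the deposited log2 probe set signals had array medians between 5.12 and 5.31. The signals were made with RMA, which normalizes between arrays, so these near-equal medians are no check of array quality. With 4 Siro.F arrays, the number of arrays limits the precision. The Siro.F arrays lay in batch 1 (R.16 and R.17) and batch 2 (R.13 and R.18), and the controls in batches 1 to 4 with 5, 10, 13 and 6 arrays. The difference of 3' and 5' actin probe sets, a sign of RNA integrity, was 0.70 to 1.82 in Siro.F and 0.43 to 3.83 in the controls. Of the defining T cell genes, CD5 and TRAT1 had median control signals of 10.82 and 11.52 and Siro.F signals between 10.27 and 10.78 and between 10.48 and 11.35. The CD3 subunit genes were not analysed here. The values were tested with limma over 11806 genes that passed a filter on low signal, out of 14132 named genes, and a gene is said to have risen or fallen where the Benjamini-Hochberg adjusted p was under 0.05. Every ± after a log2 difference is the standard error of that fit. A signal is a property of 1 probe set, so signals of different genes are not compared. Each gene said to have risen or fallen kept its call when any 1 of the 4 Siro.F arrays was left out, unless its sentence says otherwise.

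In the Siro.F animals 27 of 35 genes of cell division and 9 of 20 genes of inhibitory receptors and exhaustion rose against healthy controls, and none of either list fell. Of 19 naive and resting T cell genes 6 fell and 1 rose. In all, 976 genes rose and 749 fell, 1725 of 11806 or 14.6% (8.27% higher and 6.34% lower), so that 56.6% of the calls were higher. With the arrays of batch 1 alone 130 rose and 159 fell (45% higher), and with those of batch 2 alone 909 rose and 370 fell (71.1% higher). Of these, 175 rose and 85 fell at least 2-fold. SERPINE2, LAG3, ENTPD1 and cell cycle genes such as TOP2A and CCNB2 were among the largest rises. AUTS2, SMIM3, KLF3 and IRS2 were among the largest falls. Of the 1725 genes 1720 had the same sign within batch 1 and within batch 2. The genes were called on these same Siro.F arrays, so that count is no independent check. For 191 genes (1.62%) all 4 Siro.F arrays lay above all 34 controls, and for 107 (0.906%) all 4 lay below. The list counts below are to be read beside these shares. A list with about 14.6% of its genes called holds no more calls than genes at large. The count of 1725 was 879 without R.18 and 1184, 1445 and 1487 without R.13, R.16 and R.17.

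SERPINE2, a secreted inhibitor of serine proteases, had a log2 signal of 10.08 in R.13, 8.54 in R.16, 8.30 in R.17 and 10.40 in R.18. Its control signals ran from 5.28 to 6.63 with a median of 5.96. All 4 Siro.F arrays lay above every control, with R.13 and R.18 higher than R.16 and R.17. The log2 difference was 3.38 ± 0.45 (adjusted p = 1.71e-07), and it was 1.97 within batch 1 and 4.53 within batch 2. LAG3, an inhibitory receptor that binds MHC class II, had signals of 9.98, 10.40, 9.19 and 10.36 in R.13, R.16, R.17 and R.18. Its controls ran from 6.48 to 7.84 with a median of 7.30, again with no overlap. LAG3 rose by 2.69 ± 0.30 (adjusted p = 1.93e-09), with 2.53 in batch 1 and 2.86 in batch 2. CTLA4, the inhibitory receptor that competes with CD28 for its ligands, had signals of 8.07, 7.70, 7.54 and 8.06 against controls of 5.26 to 7.16 with a median of 6.24. The 4 animals lay close together and above every control, and the log2 difference was 1.54 ± 0.32 (adjusted p = 0.000387).

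For 3 animals the Siro.F array could be set against the animal's own control array, which lay in batch 2 for all 3, so the pair of R.16 spans 2 batches. Each had received cells from another animal, so the T cells on its Siro.F array may be of the donor. The origin of these T cells was not tested. Against its own control, SERPINE2 was higher by 4.18 in R.13, 2.42 in R.16 and 4.84 in R.18. LAG3 was higher by 2.86, 2.86 and 3.88, and CTLA4 by 2.03, 0.54 and 0.97. The smaller CTLA4 differences of R.16 and R.18 go with own controls of 7.16 and 7.08, near the top of the control range. A paired fit of these 6 arrays with the animal as a block called 0 genes with limma after adjustment and 1593 at an unadjusted p under 0.05. Of the 1725 genes called above 1405 had that sign in all 3 pairs, whose control arrays are among the 34. The Siro.F arrays of the pairs also gave the calls, so the 1405 are no independent check.

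**Figure D1:**
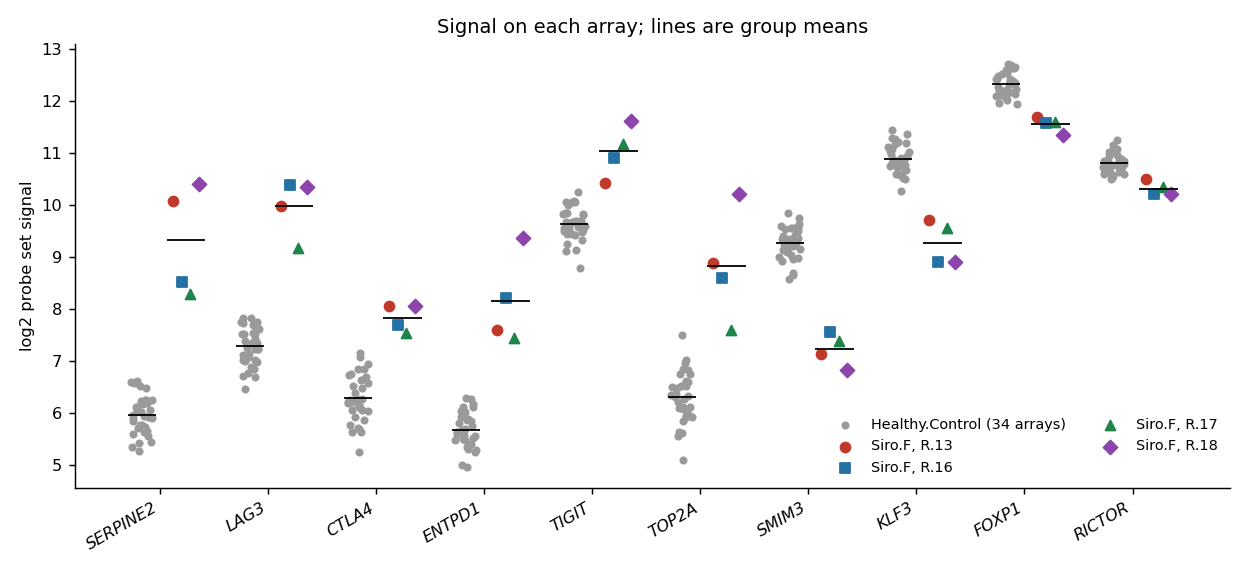
Log2 probe set signal (y axis) of 10 genes (x axis) on each of 34 Healthy.Control arrays (grey) and on the Siro.F arrays of R.13, R.16, R.17 and R.18 (coloured symbols), with horizontal lines at the group means. The Siro.F symbols of SERPINE2, LAG3, CTLA4, ENTPD1, TIGIT and TOP2A lie above all controls, and those of SMIM3, KLF3, FOXP1 and RICTOR below all controls.

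The largest rises after SERPINE2 fell into a few kinds of gene. S100A9 and S100A8, calcium-binding proteins that neutrophils and monocytes hold in large amounts, rose by 3.05 ± 0.80 and 2.93 ± 0.76. R.13 was far above the others for S100A9, with 11.05 against 8.19 to 8.38, and the controls reached 8.51. Without R.13 the differences were 2.27 for S100A9 and 2.15 for S100A8, and neither call held (adjusted p = 0.0988 for S100A9 and 0.103 for S100A8). ENTPD1, the ectoenzyme CD39 that breaks down extracellular ATP, had signals of 7.60, 8.22, 7.45 and 9.38 against controls of 4.96 to 6.29. It rose by 2.48 ± 0.29 (adjusted p = 5.64e-09). IRF8, a transcription factor of myeloid cells that activated T cells also make, rose by 2.19 ± 0.28, with signals of 7.39 to 9.33 against controls of 5.39 to 7.04. ENTPD1 and IRF8 were highest in R.18 and lowest in R.17, without overlap with the controls.

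Many of the other large rises were genes of division and DNA synthesis. TOP2A, the topoisomerase of replicating chromosomes, rose by 2.52 ± 0.42, CCNB2, a mitotic cyclin, by 2.40 ± 0.39, and TYMS, which makes thymidylate, by 2.19 ± 0.44. UHRF1, which passes on DNA methylation at replication, rose by 2.15 ± 0.37. E2F8 and E2F7, repressors of the E2F family that are made late in the cycle, rose by 2.12 ± 0.40 and 1.90 ± 0.33. OIP5 and MELK, both made in dividing cells, rose by 1.96 ± 0.37 and 1.90 ± 0.35. The vitamin D receptor VDR, a gene that T cells switch on when activated, had signals of 5.95, 5.63, 4.77 and 7.02 against controls of 3.32 to 4.41 and rose by 2.05 ± 0.29. Of its other probe sets one gave 1.94 and one 0.19. ZBED2, MOCOS (which activates molybdenum enzymes), UBE2K (a ubiquitin-conjugating enzyme) and TIMD4 (a receptor for phosphatidylserine) rose by 2.47, 2.15, 2.00 and 1.94. IFT46 rose by 2.15 ± 0.44 in the probe set used, and its second probe set gave 0.01. One gene with only a locus number was passed over among the 20 largest rises and 2 among the 20 largest falls.

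AUTS2 was among the largest falls and had signals of 7.96, 6.96, 7.75 and 7.11 against controls of 8.54 to 11.04 and fell by 2.47 ± 0.34 on the log2 scale (adjusted p = 4.13e-07). SMIM3, a small membrane protein, had 7.14, 7.57, 7.39 and 6.83 against 8.59 to 9.85. Its 4 values were tight and all below the controls, and it fell by 2.04 ± 0.19 (adjusted p = 8.48e-12). KLF3, a zinc finger repressor of resting lymphocytes, had 9.73, 8.91, 9.56 and 8.92 against 10.28 to 11.45 and fell by 1.60 ± 0.19 (adjusted p = 6.28e-09). All 4 KLF3 values lay under the lowest control. ARMCX4 and MAML3, a Notch coactivator, fell by 1.75 and 1.80, with no overlap. IRS2, an adaptor between insulin or IL-4 receptors and PI3 kinase, fell by 1.71 ± 0.32. PLCL1 and RASGRF2, an exchange factor for Ras, fell by 1.71 and 1.62. For MAML3, PLCL1 and RASGRF2 a second, dimmer probe set gave -0.19, -0.35 and -0.31, none of them past the threshold.

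Other large falls lost their calls when single arrays were left out. R.13 lay lowest for a set that included ZEB2, a transcription factor of terminal effector T cells (6.02, against 8.47, 6.62 and 7.34), PTGDR, a prostaglandin receptor (3.42, against 5.80, 4.92 and 4.60), PPP2R2B, NTN4, JAKMIP2, SLCO4C1, METTL14, COL11A1 and C1H1orf21. Their log2 differences ran from -2.40 to -1.71. None of these 9 calls held without R.13, where adjusted p ran from 0.0603 for C1H1orf21 to 0.286 for METTL14. NTN4, SLCO4C1 and COL11A1 also lost their calls without R.18. METTL14, a subunit of the RNA methyltransferase, gave -2.40 in the probe set used and -0.03 and -0.22 in the other two. SOX4 fell by 2.43 ± 0.77, and the call was lost without R.16, R.17 or R.18 (adjusted p = 0.0609, 0.0858 and 0.0629), where the differences were -2.36, -2.19 and -2.56. MSRB3 lost its call without any 1 of the 4 arrays, with differences from -1.76 to -1.47. SLC14A1 lost its call without R.16 or R.18.

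Of 9 measured genes of the mTOR complexes 1 rose and 1 fell, with a median log2 difference of 0.007 beside 0.03 over all genes tested. MTOR, the kinase, had signals of 8.67, 8.49, 8.61 and 8.63 against controls of 8.23 to 8.87, a difference of 0.08 ± 0.09 (adjusted p = 0.584). RPTOR, the scaffold of mTORC1, differed by -0.07 ± 0.11 (adjusted p = 0.753). RICTOR, the scaffold of mTORC2, had 10.51, 10.22, 10.35 and 10.21 against controls of 10.51 to 11.26 and fell by 0.49 ± 0.12 (adjusted p = 0.00174). All 4 RICTOR values lay below the controls, R.13 just so. MAPKAP1, another mTORC2 subunit, rose by 0.40 ± 0.13, and the call was lost without R.13, R.17 or R.18 (adjusted p = 0.178, 0.0741 and 0.16). FKBP1A, which encodes the protein that sirolimus binds, was under the filter level of 4.65 on all 4 Siro.F arrays, with signals of 4.17 to 4.33. Its difference was 0.09 ± 0.12, and at so low a signal it says little about the gene.

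Upstream of mTORC1, 3 of 31 genes rose and 6 fell, with a median of 0.03. PRKAB1, a subunit of the energy sensor AMPK, had 9.38, 9.45, 9.40 and 9.40 against controls of 8.56 to 9.14. The 4 animals were nearly equal and above every control, and PRKAB1 rose by 0.55 ± 0.09 (adjusted p = 2.12e-05). IRS2, an adaptor that links the insulin receptor to PI3 kinase, had the largest of the 6 falls, 1.71 ± 0.32. PIK3IP1, an inhibitor of PI3 kinase in resting T cells, fell by 1.11 ± 0.22, and its signals of 8.46 to 9.06 barely reached the control range of 8.96 to 10.65. NPRL2, part of the complex that holds mTORC1 back when amino acids are short, fell by 0.43 ± 0.10. SESN1, a stress-induced inhibitor, fell by 0.96 ± 0.25, and its call was lost without R.13 (adjusted p = 0.0551). TSC1 and PIK3R1, the brake on RHEB and the regulatory subunit of PI3 kinase, fell by 0.37 and 0.61, and the TSC1 call was lost without R.13 or R.16 (adjusted p = 0.15 and 0.103).

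Downstream, 2 of 19 genes rose and none fell (median 0.07). These were FKBP2 (0.29) and RPS6KB2, a kinase of ribosomal protein S6 (0.26), both of which lost their calls in the absence of single arrays (adjusted p up to 0.246 for FKBP2 and up to 0.129 for RPS6KB2). RPS6KB1, the main S6 kinase, differed by -0.10 ± 0.11 and RPS6 by -0.06. EIF4EBP1, the translation inhibitor that mTORC1 phosphorylates, was not analysed here. The activity of mTORC1 lies in phosphorylation, which these arrays do not measure.

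**Figure D2:**
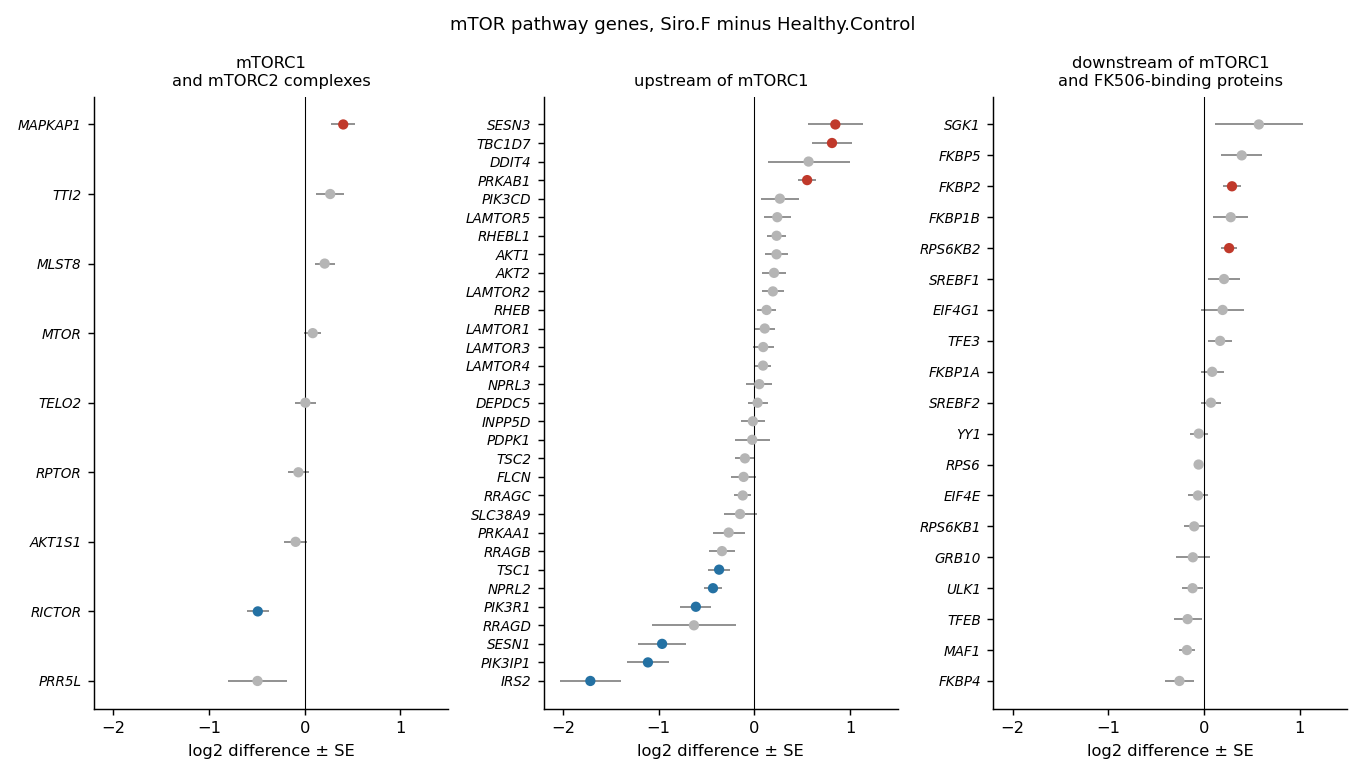
Log2 difference, Siro.F minus Healthy.Control, with its standard error (x axis) for each measured gene (y axis) of the mTOR complexes (left), upstream (middle) and downstream (right) lists. Red points rose, blue points fell and grey points did not pass the threshold, and most genes of the 3 panels are grey and near 0.

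Glycolysis is one of the programmes that mTORC1 is known to drive. Of 18 genes of glycolysis and glucose uptake 9 rose and none fell, 50% called beside 14.6% over all genes, with a median of 0.285. LDHA, which turns pyruvate into lactate, had 12.79, 12.74, 12.61 and 12.76 against controls of 11.69 to 12.33. ENO1, the glycolytic enolase, had 13.01, 12.90, 12.76 and 12.96 against 12.23 to 12.67. Both rose without overlap, by 0.67 ± 0.09 (adjusted p = 2.32e-07) and 0.47 ± 0.07 (adjusted p = 5.52e-06). PKM, pyruvate kinase, rose by 0.48 ± 0.11. HK2, the inducible hexokinase, was highest in R.13 (7.43, against 6.19, 5.71 and 6.74) and its difference of 0.91 was lost as a call without R.13 (adjusted p = 0.144). The count of rises was 4 without R.13 and 4 without R.18, and the median was 0.18 within batch 1 and 0.42 within batch 2.

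In sterol and fatty acid synthesis 3 of 20 genes rose and 2 fell (median 0.05). STARD4, a carrier of cholesterol between membranes, had signals of 8.12 to 8.66 against controls of 6.12 to 7.45 and rose by 1.38 ± 0.20. Its other probe set was dim and gave 0.14. FDFT1, squalene synthase, rose by 0.31 ± 0.08, and INSIG1, which holds sterol synthesis back, fell by 0.50 ± 0.14. None of 16 genes of ATF4 and amino acid supply was called by limma, with 4 at an unadjusted p under 0.05. In ribosome biogenesis 1 of 23 genes rose, NOLC1 (0.36), a call lost without R.13 or R.18 (adjusted p = 0.0672 and 0.0614). MYC had signals of 10.63, 10.08, 9.95 and 10.28, inside the control range of 9.02 to 10.97, with a difference of 0.05 ± 0.28. In oxidative phosphorylation 3 of 21 genes rose, 14.3% called beside 14.6% over all genes (1 without R.13 and 1 without R.18). The largest of these rises was that of ATP5MC1, a subunit of ATP synthase (0.58 ± 0.11, no overlap). In autophagy 1 of 20 rose and 2 fell. CTSD, the lysosomal protease cathepsin D, rose by 0.48 ± 0.10.

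**Figure D3:**
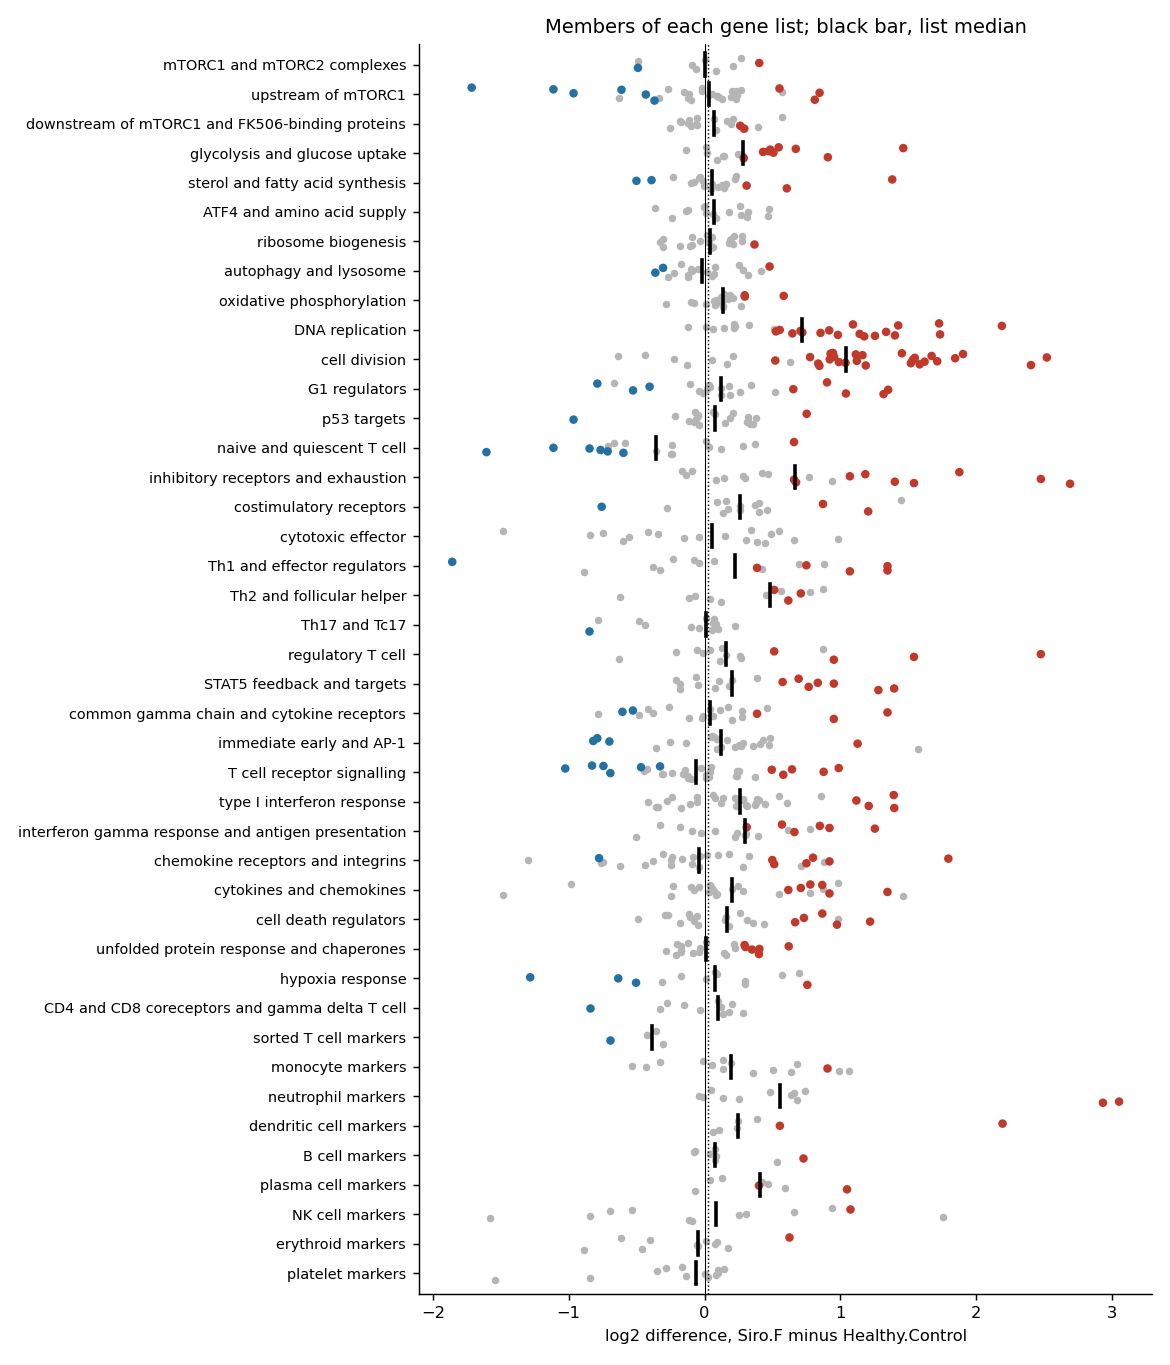
Log2 difference, Siro.F minus Healthy.Control (x axis), of each member of 42 gene lists (y axis), red where it rose, blue where it fell and grey where it did not pass, with a black bar at the median of the list and a dotted line at the median of all genes (0.03). The medians of cell division (1.04), DNA replication (0.72) and inhibitory receptors (0.67) lie farthest to the right, and those of sorted T cell markers (-0.39) and naive genes (-0.355) farthest to the left.

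Cell cycle genes rose together. Of 35 cell division genes 27 rose and none fell, 77.1% called with a median of 1.04, and for 13 of them no Siro.F array overlapped the controls. Of 27 DNA replication genes 18 rose and none fell, with a median of 0.72 and 8 without overlap. Over all genes tested, 1.62% lay above every control on all 4 arrays. With any 1 Siro.F array left out the counts were 20 to 28 and 14 to 18, lowest without R.18. Within batch 1 the medians were 0.52 and 0.37, and within batch 2 they were 1.45 and 1.08. R.18 had the highest mean in both lists.

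MKI67, the marker of cells outside the resting state, had 8.43, 7.33, 7.48 and 9.10 in R.13, R.16, R.17 and R.18 against controls of 5.90 to 7.38. It rose by 1.67 ± 0.30 (adjusted p = 4.86e-05), with R.16 just inside the control range. AURKA, a spindle kinase, had 7.21, 7.05, 6.95 and 8.29 against 6.0 to 6.72 and rose by 1.04 ± 0.20. KIF2C and KIF4A, motors of the mitotic spindle, rose by 1.84 and 1.55, and CENPF and CENPA, at the centromere, by 1.53 and 1.12. CDKN3, a phosphatase of cyclin-dependent kinases, rose by 1.52. Among the replication genes MCM10, which starts the fork, rose by 1.73 ± 0.29, with 7.96, 6.87, 6.70 and 8.58 against 5.18 to 6.30. The helicase subunits MCM2, MCM3 and MCM4 rose by 1.18, 1.25 and 1.40, GINS2 by 1.34 and CHAF1A, which packs new DNA into chromatin, by 1.09.

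The switches before S phase moved in both directions. Of 22 G1 genes 5 rose and 3 fell (1 and 1 without R.18). CCNE1, cyclin E1, had 7.92, 6.81, 7.20 and 8.31 against controls of 5.83 to 6.66. It rose by 1.32 ± 0.21 (adjusted p = 8.43e-06), with all 4 arrays above the controls. CDKN1B, the inhibitor p27 that mTORC1 signalling lowers, fell by 0.53 ± 0.15, a call lost without R.18 (adjusted p = 0.09). Among p53 targets 1 of 21 rose and 1 fell.

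Of 20 genes of inhibitory receptors and exhaustion 9 rose and none fell, 45% called with a median of 0.67. For 6 of them all 4 Siro.F arrays lay above all controls, beside 1.62% of all genes. The count of rises was 6 without R.18. TIGIT, an inhibitory receptor for CD155, had 10.44, 10.91, 11.19 and 11.62 against controls of 8.79 to 10.26 and rose by 1.40 ± 0.21 (adjusted p = 2.46e-06). CD200, a membrane ligand that restrains myeloid cells, had 8.83, 8.92, 8.67 and 9.98 against 6.41 to 7.73 and rose by 1.88 ± 0.25 (adjusted p = 1.7e-07). BATF, a partner of IRF4 in activated T cells, had 9.25, 9.76, 9.25 and 9.79 against 7.77 to 9.07 and rose by 1.18 ± 0.19. None of the 4 animals overlapped the controls for these 3 genes. HAVCR2 and BTLA, both inhibitory receptors, rose by 0.67 and 0.66, HAVCR2 not without R.18 (adjusted p = 0.217) and BTLA not without R.13 or R.18 (adjusted p = 0.104 and 0.326). EOMES, a transcription factor of memory and exhausted CD8 cells, rose by 1.07 ± 0.30, lost without R.13 or R.18 (adjusted p = 0.0612 and 0.136).

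Of 19 naive and resting T cell genes 6 fell and 1 rose, the inhibitory receptor BTLA, whose call was lost without R.13 or R.18 (adjusted p = 0.104 and 0.326), with a median of -0.355. FOXP1, which keeps naive T cells at rest, had 11.70, 11.59, 11.60 and 11.36 against controls of 11.94 to 12.72. It fell by 0.77 ± 0.12 (adjusted p = 9.35e-06), with no overlap. KLF2, which controls exit from lymph nodes, fell by 0.60 ± 0.11, with R.13 at 11.67 inside the control range of 11.57 to 12.21 and the other 3 below it. TXNIP, a brake on glucose uptake, fell by 0.85 ± 0.17. TCF7 and CCR7, which mark naive and central memory cells, had differences of -0.24 ± 0.17 and -0.24 ± 0.34 (adjusted p = 0.391 and 0.707), and their signals overlapped the controls widely. IL7R was not analysed here. In sorted bulk cells, fewer cells of a type and less RNA per cell cannot be told apart.

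Costimulatory receptors were mostly not past the threshold (2 of 15 rose and 1 fell). TNFRSF4, the receptor OX40 of activated CD4 cells, had 8.41, 8.59, 9.46 and 9.24 against controls of 6.99 to 8.32. All 4 lay above the controls and it rose by 1.21 ± 0.23 (adjusted p = 0.000129). CD28 had 7.22, 6.31, 7.05 and 7.15 inside the control range of 6.04 to 7.60, a difference of 0.14 ± 0.24. In the regulatory T cell list 4 of 15 rose, namely CTLA4, ENTPD1, CCR8 and IL2RA, genes that activated T cells share. The CCR8 call was lost without R.13, R.17 or R.18 (adjusted p = 0.0706, 0.0879 and 0.0721). IL2RA, the high-affinity chain of the IL-2 receptor, had 7.37, 7.0, 7.32 and 6.99 against 5.70 to 6.89 and rose by 0.95 ± 0.24. FOXP3, which defines regulatory T cells, differed by 0.11 ± 0.14 with Siro.F signals of 4.75 to 5.15 near the filter level of 4.65.

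None of 18 cytotoxic genes was called by limma, with 3 at an unadjusted p under 0.05, and their median was 0.055. GZMB, granzyme B, had 13.31, 13.96, 12.22 and 13.65 against controls of 11.38 to 13.73, a difference of 0.39 ± 0.40 (adjusted p = 0.585). R.17 lay low and R.16 above every control. PRF1 was not analysed here. In the Th1 list 5 of 16 rose and 1 fell, and without R.18 none rose. IFNG had 5.09, 7.37, 5.65 and 8.42 against 3.73 to 7.14, so R.16 and R.18 were above every control and R.13 and R.17 within them. Its difference of 1.35 ± 0.47 was lost as a call without R.16 or R.18 (adjusted p = 0.179 and 0.491). TBX21, the Th1 factor T-bet, had 8.38, 10.36, 8.75 and 9.38 against 8.55 to 11.20, a difference of -0.89 ± 0.39 (adjusted p = 0.129). In the Th2 and follicular helper list 3 of 12 rose (none without R.18), and in the Th17 list IL17A differed by 0.06 ± 0.14. CD4, CD8A and CD8B, the coreceptors, differed by 0.14, 0.28 and 0.18, none past the threshold.

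Of 17 STAT5 feedback genes and targets 7 rose and none fell, with a median of 0.20. CISH, a feedback inhibitor of STAT5, had 9.68, 10.25, 10.19 and 10.16 against controls of 7.68 to 9.96. It rose by 1.28 ± 0.30 (adjusted p = 0.00179), with R.13 inside the control range and the other 3 above it. PIM1, a kinase that STAT5 induces, had 11.70, 11.48, 11.79 and 11.28 against 10.48 to 11.30 and rose by 0.77 ± 0.13 (adjusted p = 1.56e-05). LIF, a cytokine, and JAK2, a receptor kinase, rose by 0.57 and 0.69. SOCS2, another feedback inhibitor, had 8.34, 7.07, 9.30 and 7.12 within or near controls of 4.18 to 8.57. Its difference of 1.40 ± 0.50 was lost as a call without R.13, R.17 or R.18 (adjusted p = 0.171, 0.293 and 0.0502). Of 21 cytokine receptor genes 3 rose and 2 fell.

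Among 32 genes of antigen receptor signalling 5 rose and 6 fell, with a median of -0.06 (3 and 3 without R.18). NFATC1, a transcription factor that calcineurin activates, had 10.19, 10.09, 10.38 and 10.77 against controls of 8.79 to 9.87 and rose by 0.99 ± 0.18 (adjusted p = 5.06e-05), with no overlap. RCAN1, an inhibitor of calcineurin that NFAT itself induces, fell by 0.74 ± 0.17. TAGAP, a GTPase activator of activated T cells, had 10.92, 10.69, 11.32 and 10.86 against 11.26 to 12.62. It fell by 1.02 ± 0.23 (adjusted p = 0.000904), with R.17 alone inside the control range. PTPN6, the phosphatase SHP-1, and SIT1, an adaptor that restrains the receptor, rose by 0.58 and 0.64. RUNX1, a regulator of T cell development, fell by 0.84 ± 0.13 with no overlap in the probe set used, and its 5 dimmer probe sets were not past the threshold. Of 25 immediate early genes 1 rose and 3 fell, among them ZFP36L2, which destabilises cytokine messages (-0.70 ± 0.19, no overlap).

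Of 32 type I interferon genes 4 rose and none fell, 12.5% called beside 14.6% over all genes (median 0.26, 2 without R.18). ISG15, a ubiquitin-like protein, had 9.32, 8.26, 9.36 and 9.43 against controls of 7.33 to 8.87 and rose by 1.21 ± 0.29, with R.16 apart and inside the controls. PLSCR1 rose by 1.39 ± 0.32. IFI27 had 8.90, 7.88, 8.88 and 9.63 inside controls of 5.81 to 9.82. Its difference of 1.40 ± 0.47 was lost as a call without R.13, R.17 or R.18 (adjusted p = 0.102, 0.0788 and 0.229). Of 20 genes of the interferon gamma response 6 rose (3 without R.13 and 3 without R.18). These included PSME2 and PSMB10 of the immunoproteasome (0.57 and 0.66) and WARS1, a tRNA synthetase that interferon gamma induces (0.85 ± 0.21).

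Of 29 chemokine receptors and integrins 6 rose and 1 fell (2 and 0 without R.18). ITGA2, the collagen-binding integrin chain, had 6.60, 5.94, 6.69 and 7.13 against controls of 3.82 to 6.22 and rose by 1.79 ± 0.36 (adjusted p = 0.000237). Of 27 cytokines 6 rose and none fell, and 1 rose without R.18. That was TNFSF11, the ligand RANKL, with 5.35, 5.34, 5.82 and 6.28 against 4.52 to 5.31, a rise of 0.78 ± 0.14. Among 22 cell death genes 5 rose. BCL2L11, which encodes BIM, had 11.28, 10.52, 10.99 and 11.07 against 9.46 to 10.47 and rose by 0.97 ± 0.20 (adjusted p = 0.000257). BIK and BAK1, also death-promoting members of the BCL2 family, rose by 1.22 and 0.67. None of these 3 overlapped the controls. Of 21 chaperones and unfolded protein response genes 6 rose (1 without R.18), led by HSPA8 (0.62 ± 0.13). In the hypoxia list 1 of 13 rose and 3 fell. MXI1, an antagonist of MYC, had 9.07, 9.32, 9.75 and 8.53 against 9.91 to 10.80 and fell by 1.28 ± 0.17 (adjusted p = 1.96e-07), and KDM3A, a histone demethylase, fell by 0.64 ± 0.10.

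Markers of other blood cells were examined beside these results. Of 12 neutrophil markers 2 rose, S100A8 and S100A9 (median 0.56), and none did without R.13. The summed linear signal of the list was 6524 in R.13 and 1081 to 1416 in the other 3. The controls ran from 364 to 1504 with a median of 578. Averaged over the list, all 4 arrays lay above the control mean, by 1.62 in R.13, 0.62 in R.16, 0.39 in R.17 and 0.55 in R.18. R.13 was also highest for MMP9, a neutrophil protease (6.92, against 4.90 to 5.09). Of 15 monocyte markers 1 rose (median 0.19), and the sums of 2783 to 4477 lay inside the control range of 2189 to 8963. Of 7 dendritic cell markers tested 2 rose, IRF8 and BATF3 (0.56 ± 0.13). FLT3, CLEC9A, XCR1, FCER1A and TCF4, also dendritic cell markers, were at or under the filter level of 4.65 on all 4 arrays. CLEC9A, XCR1 and TCF4 failed the low-signal filter in the series as a whole, so their low signals are not particular to Siro.F. CD1C and CLEC10A, further markers of the list, were not at or under that level on all 4 arrays, and neither was called. Whether dendritic cells were present was not tested. The sum of the dendritic cell list, which also holds GZMB and IRF8, was 5266 to 16735, highest in R.16, beside controls of 3094 to 13967. On each Siro.F array most of that sum was the signal of GZMB, a gene of the cytotoxic list. Of 12 NK cell markers 1 rose, EOMES, a call lost without R.13 or R.18 (adjusted p = 0.0612 and 0.136), with sums of 12032 to 23734 inside the control range of 6512 to 25980. Of 8 B cell markers 1 rose, CD79B, a subunit of the B cell receptor (0.73 ± 0.21), a call lost without R.13 (adjusted p = 0.203), and the sums were 470 to 617 within controls of 306 to 648. Of 8 plasma cell markers tested 2 rose and none fell, among them MZB1, an endoplasmic reticulum protein (1.05 ± 0.19). R.16 had a sum of 3244, above the controls of 1637 to 2902. That sum also holds IRF4 and PRDM1, which are members of the inhibitory receptor and exhaustion list as well. Of 11 erythroid markers 1 rose, TFRC, the transferrin receptor (0.62 ± 0.15), a call lost without R.18 (adjusted p = 0.112). Erythroid sums (1146 to 1422) and platelet sums (1905 to 3196) lay inside the control ranges of 921 to 11258 and 1393 to 12962. CD6, on T cells, had 7.01, 6.40, 6.95 and 6.99 against controls of 6.64 to 8.21. Its difference of -0.69 was lost as a call without any 1 of the 4 arrays (adjusted p from 0.0513 to 0.17). The summed signal of 4 markers of the sorted T cells was 3335 in R.16, under the lowest control, and 3670 to 4273 in the other 3, beside controls from 3345 to 6577 with a median of 5067. The part of other cells in the results above was not tested.

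Averaged over the cell division list, the distance from the control mean was 1.75 in R.18, 1.12 in R.13, 0.70 in R.16 and 0.50 in R.17. For inhibitory receptors it was 1.30 in R.18 and 1.05 in R.16 against 0.52 in R.13 and 0.44 in R.17. Cytotoxic genes split the animals by sign, at 0.68 in R.16 and 0.40 in R.18 and at -0.53 in R.13 and -0.74 in R.17. The NK cell list, which shares KLRD1, NKG7 and GNLY with the cytotoxic list, split them the same way (0.92 and 0.42, and -0.60 and -0.37). The members that follow were picked after their values were seen. CCL5, a chemokine of effector CD8 cells, had 10.94 and 10.38 in R.16 and R.18 and 8.15 and 8.44 in R.13 and R.17, the last 2 under the lowest control of 8.99. KLRD1, the receptor CD94, had 11.94 and 11.35 against 8.38 and 9.82. XCL1, a chemokine of activated CD8 cells, had 10.34 and 10.37 against 5.73 and 7.11. The batches hold R.16 with R.17 and R.13 with R.18, and the cause of the splits was not tested. No test was made between animals, each of which gave 1 array.

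**Figure D4:**
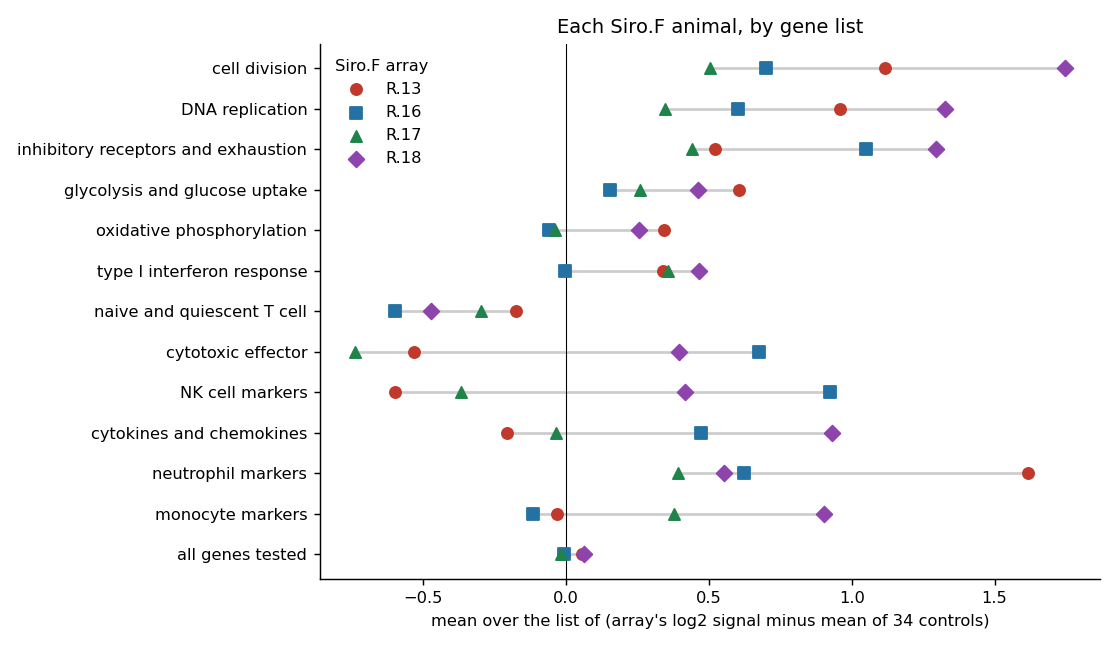
Mean over the members of each list of the array's log2 signal minus the mean of the 34 controls (x axis), for 13 lists (y axis) and the 4 Siro.F arrays (symbols). R.18 is highest for cell division (1.75), R.13 stands apart for neutrophil markers (1.62), and R.16 and R.18 lie on the other side of 0 from R.13 and R.17 for cytotoxic and NK cell lists.

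The values were also set beside 3 other transplant groups. NoRx.F is 4 animals with an allogeneic transplant and no prophylaxis (3 in batch 1 and 1 in batch 2), sampled at their final time. Auto.D14 is 3 animals given back their own cells and sampled on day 14, and FR104.Siro.F is 4 allogeneic recipients given sirolimus with FR104, an antibody fragment against CD28. Both of the latter lie wholly in batch 4, which holds no Siro.F array, so they are tied to Siro.F through the controls. All groups share the 34 controls, against which 35.4% of genes were called in NoRx.F, 14.6% in Siro.F, 10.1% in FR104.Siro.F and 4.4% in Auto.D14.

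Between Siro.F and NoRx.F 1425 genes differed (12.1%), 636 higher and 789 lower in Siro.F. Leaving out 1 array of either group gave 845 to 1681, the lowest without R.16 of Siro.F, with 937 without its R.17 and 871 and 924 without R.50 and R.52 of NoRx.F. CCNB2 was 2.40 above the controls in Siro.F and 4.77 in NoRx.F, a difference of -2.37 ± 0.49 (adjusted p = 0.000446), and MKI67 was 1.67 against 3.41, a difference of -1.74 ± 0.38. Of the 35 cell division genes 13 were lower and none higher than in NoRx.F, and the other genes of the list did not pass the test. Of 27 DNA replication genes and of 21 oxidative phosphorylation genes, 13 each were lower and 1 each higher. Over all genes the 789 lower were 408 without R.16 and 466 without R.17 of Siro.F. The calls of TYMS, GINS2 and CHAF1A of DNA replication and CENPF of cell division were each lost without R.16, R.17, R.50 or R.52. These list counts were not tested with single arrays left out. EOMES and NFATC1 were higher in Siro.F, by 1.45 ± 0.38 and 1.16 ± 0.22, as was CD200, by 1.59 ± 0.32. CISH was 1.28 above the controls in Siro.F and -1.25 in NoRx.F. Of the 20 genes of inhibitory receptors and exhaustion 2 were lower and 3 higher than in NoRx.F. The 2 lower genes were LAG3 and HAVCR2. The LAG3 call was lost without R.13 or R.17 of Siro.F or R.51 or R.52 of NoRx.F, with differences from -1.12 to -0.82. The HAVCR2 call was lost without R.16 or R.17 of Siro.F or R.53 of NoRx.F. For SERPINE2, CTLA4 and ENTPD1 the differences between the 2 groups were 0.23 ± 0.57, 0.11 ± 0.41 and -0.15 ± 0.36, none past the threshold. PTPN13, a tyrosine phosphatase, was 0.01 ± 0.34 from the controls in Siro.F and -3.26 in NoRx.F.

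Between Siro.F and Auto.D14 3 genes differed (0.0254%), all of them also called against the controls. The call of AATK against the controls was lost without R.13 of Siro.F (adjusted p = 0.0906 with limma). The count of 3 was 0 and 1 without R.202 and R.200 of Auto.D14, 13 without its R.201, 7 without R.17 of Siro.F and 141 with no batch term. GNPDA1, an enzyme of hexosamine breakdown, was higher in Siro.F by 1.68 ± 0.29 (adjusted p = 0.00303), a call lost without Auto.D14 animal R.202 (adjusted p = 0.0775). AATK, a kinase, was higher by 1.89 ± 0.39 and EAPP, an E2F-associated protein, lower by 0.65 ± 0.14 (both adjusted p = 0.0386), and each lost its call without several single arrays (adjusted p up to 0.242 for AATK and 0.177 for EAPP). Against the controls GNPDA1 rose by 1.58 in Siro.F and stood at -0.10 in Auto.D14. The cell cycle genes rose in Auto.D14 too. There 16 of 35 cell division genes rose and none fell, with a median of 0.86 beside 1.04 in Siro.F. Of 27 DNA replication genes 10 rose and none fell in Auto.D14, with a median of 0.60 beside 0.72. For LAG3 the values against the controls were 2.69 in Siro.F and 2.56 in Auto.D14, and for CTLA4 1.54 and 0.24, a difference of 1.30 ± 0.52 that was not past the threshold (adjusted p = 0.445).

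Between Siro.F and FR104.Siro.F 154 genes differed (1.3%), 116 higher and 38 lower in Siro.F. The count was 17 without R.18 of Siro.F, 68 without its R.16, 72, 44 and 79 without R.27, R.28 and R.29 of FR104.Siro.F, 258 without its R.26 and 801 with no batch term. The share of higher genes was 75.3%, and 54.3% after quantile normalization. IRF8 was 2.19 above the controls in Siro.F and -0.27 in FR104.Siro.F, and the difference of 2.46 ± 0.42 (adjusted p = 0.000681) held without any 1 array of either group. EOMES, ID3 (an inhibitor of E-box transcription factors) and ZBTB32 (a repressor in activated lymphocytes) were higher in Siro.F by 2.21, 1.85 and 1.76. All 3 calls were lost without R.18 of Siro.F (EOMES adjusted p = 0.0655, ID3 0.126 and ZBTB32 0.0843), and ID3 also without R.16 (adjusted p = 0.0584). AUTS2 was -2.47 against the controls in Siro.F and -0.36 in FR104.Siro.F, a difference lost as a call without R.16 or R.18 of Siro.F or R.28 of FR104.Siro.F (adjusted p = 0.0703, 0.113 and 0.101). CISH was 1.28 and 1.55 above the controls in the 2 groups, and SERPINE2 3.38 and 2.14. In FR104.Siro.F 10 of 35 cell division genes rose against the controls and none fell, with a median of 0.53 beside 1.04 in Siro.F. Of 27 DNA replication genes 5 rose and none fell there.

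**Figure D5:**
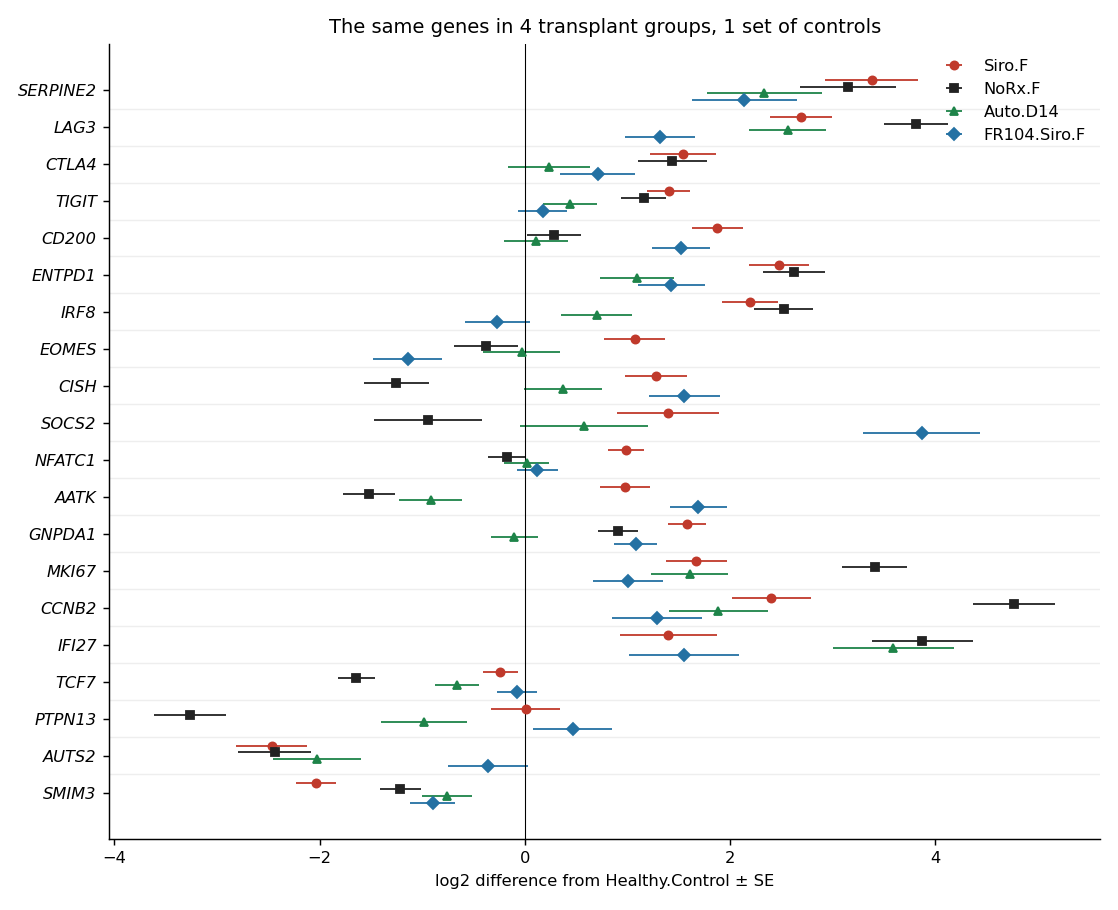
Log2 difference from the 34 Healthy.Control arrays with its standard error (x axis) for 20 genes (y axis) in Siro.F, NoRx.F, Auto.D14 and FR104.Siro.F (symbols), all against 1 set of controls. SERPINE2 and LAG3 are above 0 in all 4 groups, IRF8 is 2.19 in Siro.F and -0.27 in FR104.Siro.F, and PTPN13 is 0.01 in Siro.F and -3.26 in NoRx.F.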

How the data were processed

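CD3 T cells sorted from macaque blood were measured on Affymetrix 3' arrays, 81 in all. The authors deposited log2 probe set signals, made with RMA in affy per the submitters' processing notes, with versions not given in the sources used here. Among controls 62.1% of genes had an F-test p over 0.95 between batches, where chance gives 5%. Whether the deposited values were adjusted for batch is not given in the sources used here, and the effect of such a step on standard errors and p-values was not tested.

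Of 52865 probe sets 24969 had 1 gene symbol in the platform annotation, 361 several and 27535 none. A gene is its brightest probe set with 1 symbol (14132 genes), and genes above the 40th percentile (4.65) in at least 2 arrays were tested (11806). Group means and the batch label were fitted with limma 3.58.1 (R 4.3.3, eBayes with trend, 62 residual degrees of freedom) to all 81 arrays, with Benjamini-Hochberg adjustment over all genes. The script was tested on simulated data. Lists were described by counts and medians. Named genes are the 20 largest rises and falls on 1 side of the control mean, up to 6 members of each list by adjusted p and a set of T cell genes, with a few more picked after their values were seen. Members and lists were chosen with earlier results of these data known. Alternatives changed the batch term, the controls, the animal block, the filter, the probe sets, the normalization, RNA quality, array weights and the arrays left out. The same animal gave both arrays of a pair per the labels. After group means were removed, the correlation of each Siro.F array with its own control was -0.117 for R.16, -0.186 for R.13 and -0.14 for R.18. By that correlation the own control ranked 29, 28 and 31 of the 34 controls in R.16, R.13 and R.18.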

Additional observations from a re-analysis of the deposited data

Results flagged for a closer look

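Of the 150 genes that the text names, 7 (4.67%) had 1 of the 4 Siro.F arrays far from the other 3, by a gap past the critical value of Dixon's test, and chance gives about 5%. S100A9 was 11.05 and MMP9 6.92 in R.13, where the other arrays reached 8.38 and 5.09. CISH was lowest in R.13 at 9.68, against 10.16 to 10.25. ISG15 and CD6 were lowest in R.16, at 8.26 and 6.40. CD8A was lowest in R.17 at 11.96, against 12.81 to 12.89. CTSD was highest in R.18 at 9.47, against 9.12 to 9.14.

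Among 16962 tested probe sets without a gene name, which no comparison above uses, 1509 (8.9%) passed the threshold between Siro.F and the controls, 540 higher and 969 lower. The adjustment there ran over all probe sets that passed the filter, with and without a gene name. That share is therefore not directly comparable with the share of genes called above.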

How the results depend on the processing

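Against the controls the count of 1725 genes was 289 in batch 1 alone and 0 in the paired fit with the animal as a replicate block, and it ran from 879 to 1487 with 1 Siro.F array left out. The other alternatives gave 1279 to 2242, with 1892 under the animal as a random replicate block. Of the 150 genes that the text names 125 were called against the controls. None of them turned sign in any alternative, though every alternative reused arrays on which the genes were called. In batch 1 alone 66 lost their calls and in batch 2 alone 17. Against NoRx.F the left-out range was 845 to 1681. Against Auto.D14 the count of 3 was 20 with the random replicate block, 141 with no batch term and 0 to 13 with 1 array left out. Against FR104.Siro.F the count of 154 was 801 with no batch term and 17 to 258 with 1 array left out. The cause of these changes was not tested. With 4 Siro.F arrays in 2 batches, the number of arrays limits the precision.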
